A study of Homo sapiens with 14 samples.

Results

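The genes studied were 35 members of fatty acid oxidation and the peroxisome, chosen by name, with earlier results of these data known, and found by gene symbol among the 62703 genes of the count table. They were followed in 14 RNA libraries of 3 human prostate cancer cell lines, and every group had been exposed for 3 days either to 1.5 µM SEL120-34A, an inhibitor of CDK8 and CDK19 (the kinases of the Mediator complex), or to its solvent, dimethylsulfoxide (DMSO). LNCaP, which carries the androgen receptor and is sensitive to the androgen receptor blocker enzalutamide, gave 3 DMSO and 3 SEL120-34A libraries. 22Rv1, which is enzalutamide-resistant, also gave 3 and 3, and PC3, which lacks the receptor, gave 1 and 1. None of the lines carries an allele made for the study, and the controls received the solvent alone. A library counts the 3′ ends of transcripts, so its values are counts of tags per gene.

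Fatty acids are burned in steps. A fatty acid is first joined to coenzyme A, carried across the mitochondrial membranes by the carnitine shuttle, and then shortened in repeated rounds of oxidation whose electrons pass through the electron transfer flavoproteins to the respiratory chain. Double bonds in unsaturated chains have to be moved or reduced by auxiliary isomerases and reductases before a round can go on. Very long and branched chains are shortened first in peroxisomes, whose enzymes are imported from the cytosol by peroxins, and fatty aldehydes are oxidised to fatty acids by a separate dehydrogenase. In prostate tissue and its cancers, fatty acids are known as a fuel, and the branched-chain enzyme AMACR is known as a tissue marker of the cancer.

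Library totals ranged from 246063 to 909176 counts, and 31 to 34 of the 35 members had at least 1 count in each library. All 3 SEL120-34A libraries of 22Rv1 (246063 to 368778 counts) were shallower than the 22Rv1 controls (476455 to 777207 counts). The share of counts from the mitochondrial genome was 13.9% to 17.3% in LNCaP with DMSO and 16.5% to 23.3% with SEL120-34A, and 7.60% to 9.82% against 9.52% to 13.1% in 22Rv1. Markers of the lines followed the labels: 7 genes of androgen-responsive prostate lines summed to a mean of 3126 CPM (a gene's counts scaled to a common library total) in DMSO-treated LNCaP, 477 in 22Rv1 and 53.3 in PC3, and 6 genes typical of PC3 to 40.5, 77.6 and 2800 CPM.

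Levels are given as CPM, normalised by the trimmed mean of M-values (TMM), as mean ± SD. Tags are counted at 3′ ends, so levels are not divided by transcript length. Levels of 1 gene, or sums over a gene list, are compared between samples, and genes are not compared with each other. Changes are log2 fold changes with their standard errors (SE) from edgeR's quasi-likelihood test over 12 LNCaP and 22Rv1 libraries, with the p-value adjusted by the method of Benjamini and Hochberg over all 7086 genes tested. A gene is said to rise or fall where its adjusted p was under 0.05. Of the 35 members, 28 had enough counts to be tested. In bulk RNA, fewer cells of a type and less RNA per cell cannot be told apart.

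To investigate whether the inhibitor acted on these genes in the enzalutamide-resistant line, DMSO-treated and SEL120-34A-treated 22Rv1 were compared first. Genes of 3 different steps rose: *ALDH3A2*, the fatty aldehyde dehydrogenase, 2.25-fold, *ECH1*, an isomerase for unsaturated chains, 2.07-fold, and *DBI*, the acyl-CoA binding protein, 1.77-fold. No member fell. These 3 of 28 members (10.7%) stand beside 5.7% of all genes called in this comparison, and the median log2 fold change of the members was 0.16 against 0.0025 over all genes.

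*ECH1* (ENSG00000104823.9, GRCh38 chr19:38815422-38831841, minus strand) encodes delta(3,5)-delta(2,4)-dienoyl-CoA isomerase, which moves double bonds so that a polyunsaturated chain can be shortened. Its level was 277, 260.2 and 229 CPM in the 3 DMSO libraries of 22Rv1 and 535, 446 and 573 CPM in the 3 SEL120-34A libraries. Every treated library was above every control. The log2 fold change was 1.05 (SE 0.14), or 2.07-fold, with an adjusted p of 9.34e-07.

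*ALDH3A2* (ENSG00000072210.19, chr17:19648136-19685760, plus strand) oxidises long-chain fatty aldehydes and is the gene mutated in Sjögren-Larsson syndrome. It stood at 151, 155 and 156 CPM in the DMSO libraries of 22Rv1 and at 345, 378 and 317 CPM after SEL120-34A, again without overlap. The log2 fold change was 1.17 (SE 0.16), or 2.25-fold, with an adjusted p of 1.78e-06.

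*DBI* (ENSG00000155368.18, chr2:119366924-119372550, plus strand) binds long-chain acyl-CoA and keeps it available to the enzymes that use it. Its level in 22Rv1 was 316, 305 and 285 CPM with DMSO and 532, 644 and 428 CPM with SEL120-34A, so that the lowest treated library lay above the highest control. The log2 fold change was 0.83 (SE 0.14, 1.77-fold, adjusted p = 9.66e-05). All 3 calls were made under each of 24 alternative settings, including counts thinned to the smallest total and counts without the mitochondrial genes.

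**Figure D1:**
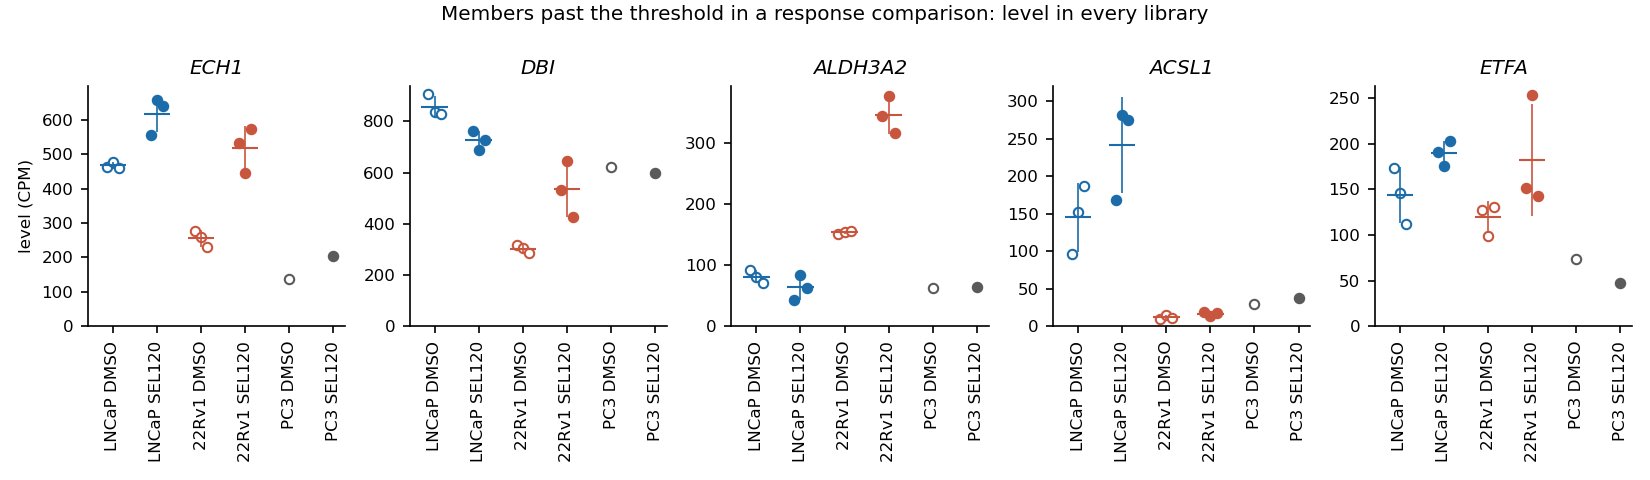
Level of the 5 members that passed the threshold in a response comparison, in CPM (y axis, starting at 0, own scale per gene), in every library of the 6 groups (x axis). Open points are DMSO, filled points SEL120-34A, horizontal lines the mean and vertical lines the SD of 3 libraries; PC3 has 1 library per arm and no SD. In 22Rv1 the filled points of *ECH1*, *DBI* and *ALDH3A2* all lie above the open ones, while in LNCaP those of *DBI* lie below.

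The other 25 tested members did not pass in 22Rv1, with log2 fold changes from -0.61 to 0.72 and SE from 0.14 to 0.69. For 18 of them the 95% interval lay within a 2-fold change either way. For 7 it reached past 2-fold, so a change of that size was not excluded for those 7. The closest to the threshold was *ETFA*, the alpha subunit of the electron transfer flavoprotein (ENSG00000140374.17, chr15:76188555-76311730, minus strand). It was at 128, 99.2 and 131 CPM with DMSO and at 152, 253 and 143 CPM with SEL120-34A, without overlap but with 1 treated library far above the other 2 (log2 fold change 0.57, SE 0.20, adjusted p = 0.0837). Its partners gave 0.01 (*ETFB*) and 0.72 with an SE of 0.55 (*ETFDH*, the dehydrogenase that passes the electrons on).

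None of the 8 tested mitochondrial enzymes that shorten the chain passed in 22Rv1. *ECHS1*, the short-chain enoyl-CoA hydratase, gave 0.30 (SE 0.14, adjusted p = 0.236), *ACADVL*, the very-long-chain acyl-CoA dehydrogenase, 0.34 (SE 0.17, adjusted p = 0.282) and *HADHB*, the thiolase subunit of the trifunctional protein, -0.27 (SE 0.23). The others were *ACADM* and *ACADS*, the medium-chain and short-chain dehydrogenases, *HADH*, *HADHA* and *HSD17B10*, which act on hydroxyacyl-CoA, and they lay between -0.06 and 0.32.

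Of the carnitine shuttle, *CPT1A*, which controls entry into the mitochondrion, gave 0.14 (SE 0.46) and *CPT2*, its partner on the inner membrane, -0.42 (SE 0.33) in 22Rv1. Apart from *ECH1*, the auxiliary enzymes *ECI1*, *ECI2* and *DECR1* gave 0.07, -0.07 and -0.24. Among the peroxisomal enzymes, *SCP2*, the sterol carrier thiolase, gave 0.45 (SE 0.22, adjusted p = 0.248), *PECR*, an enoyl-CoA reductase, -0.61 (SE 0.50), and *ABCD3*, a transporter of the peroxisomal membrane, -0.46 (SE 0.29, adjusted p = 0.412). *ACAA1*, *DECR2*, *CROT*, *CAT* (catalase) and the peroxin *PEX19* lay between -0.01 and 0.30, and *ACSL1* gave 0.53 with an SE of 0.52 on 3 to 9 counts per library.

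Summed over all 35 members, the level in 22Rv1 was 2920 ± 244 CPM with DMSO and 3854 ± 190 CPM with SEL120-34A (n = 3 each), ranges that did not overlap. Without *ECH1*, *DBI* and *ALDH3A2*, the other 32 summed to 2209 ± 262 and 2455 ± 143 CPM, and those ranges overlapped (1924 to 2440 CPM against 2321 to 2605 CPM). These 3 members held most of the difference in the sum. They were set apart because they had risen in this comparison, so a smaller difference without them was fixed in advance.

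In LNCaP, *ACSL1*, which joins long-chain fatty acids to coenzyme A, and *ECH1* rose, and no member fell. These were 2 of 28 members (7.14%), beside 2.77% of all genes called in LNCaP. The median log2 fold change of the members was 0.07, against 0.00076 for all genes. When libraries were scaled by their totals alone, the median of the members was -0.01, and the median of all genes also moved, by -0.08.

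*ACSL1* (ENSG00000151726.16, chr4:184755595-184826818, minus strand) was at 95.8, 152 and 187 CPM in the 3 DMSO libraries of LNCaP and at 168, 282 and 275 CPM in the 3 SEL120-34A libraries. The ranges overlapped, since the lowest treated library lay below the highest control. The log2 fold change was 0.80 (SE 0.19, 1.75-fold, adjusted p = 0.0121). The call was lost in 6 of 23 alternatives, among them leaving out DMSO replicate 1 (adjusted p = 0.147), SEL120-34A replicate 2 (0.135) or SEL120-34A replicate 3 (0.0607), and DESeq2 (adjusted p = 0.0788).

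*ECH1* was at 463, 479 and 461 CPM with DMSO and at 558, 659 and 639.9 CPM with SEL120-34A in LNCaP, without overlap. Its log2 fold change was 0.44 (SE 0.13, 1.36-fold), with an adjusted p of 0.0458. This call lay next to the threshold and was lost in 13 of 24 alternatives, including each of the 6 that left out an LNCaP library (adjusted p from 0.0659 to 0.259) and those without 22Rv1 SEL120-34A replicate 1 (0.0781) or replicate 3 (0.0524). The fold change itself stayed between 0.35 and 0.54 in all 24.

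*DBI* and *ALDH3A2*, which rose in 22Rv1, gave values of the other sign in LNCaP. *DBI* was at 907, 835 and 829 CPM with DMSO and at 764, 688 and 727 CPM with SEL120-34A, without overlap (log2 fold change -0.21, SE 0.13, adjusted p = 0.491). *ALDH3A2* was at 91.6, 81.2 and 71.3 CPM with DMSO and at 42.9, 84.0 and 63.4 CPM with SEL120-34A, with overlap (log2 fold change -0.29, SE 0.22, adjusted p = 0.620). Neither change passed the test in LNCaP.

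With these, 26 tested members did not pass in LNCaP, and 22 of the 26 had 95% intervals within 2-fold either way. The most negative was *CPT1A*, at 40.9, 52.4 and 35.0 CPM with DMSO and 19.5, 19.0 and 23.2 CPM with SEL120-34A. Its groups did not overlap, but the treated libraries held 5 to 11 counts, and the log2 fold change of -0.95 (SE 0.35) had an adjusted p of 0.166. *ECI2*, an isomerase for unsaturated chains, was at 117, 105 and 108 CPM against 42.9, 73.2 and 80.3 CPM, without overlap (-0.66, SE 0.23, adjusted p = 0.125).

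*ABCD3* gave 0.49 (SE 0.19, adjusted p = 0.189), *ETFA* 0.44 (SE 0.19, adjusted p = 0.260) and *SCP2* 0.40 (SE 0.19, adjusted p = 0.348) in LNCaP. *ACADM* gave -0.49 (SE 0.25), *CROT*, the carnitine octanoyltransferase of peroxisomes, -0.53 (SE 0.41), and *HADH* -0.44 (SE 0.23, adjusted p = 0.405). *HADH* was called lower, with an adjusted p of 0.0497, only in the alternative without SEL120-34A replicate 3. The remaining 16 members that did not pass lay between -0.24 (*DECR2*) and 0.38 (*ACAA1*). The summed level of the 35 members was 4114 ± 163 CPM with DMSO and 4280 ± 153 CPM with SEL120-34A in LNCaP, with overlapping ranges.

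**Figure D2:**
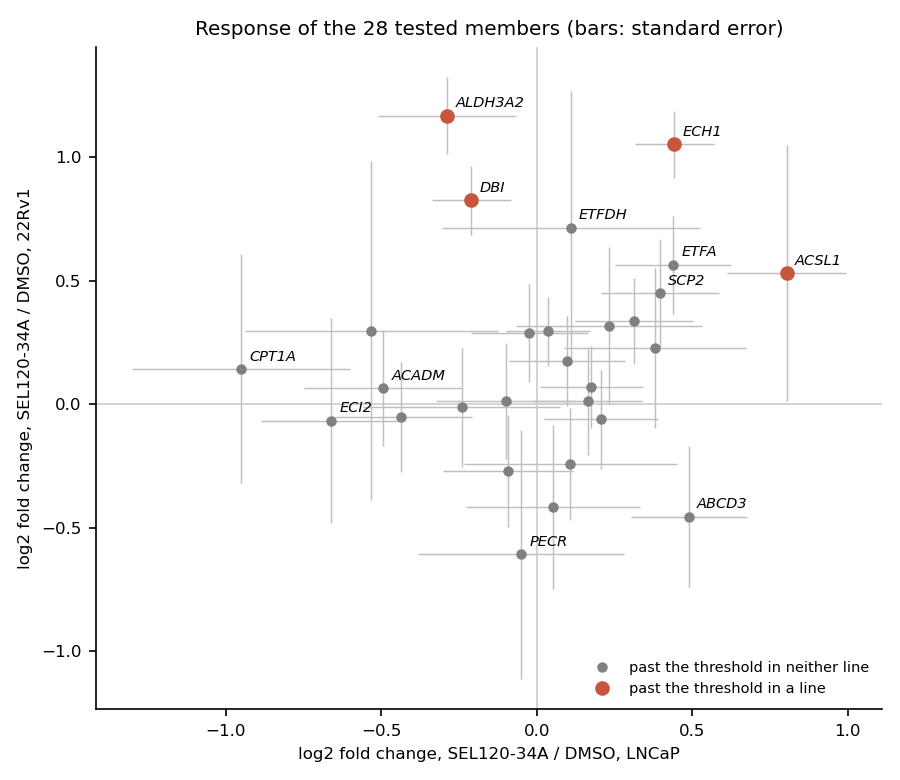
Log2 fold change of SEL120-34A against DMSO in LNCaP (x axis) and in 22Rv1 (y axis) for the 28 tested members, with bars of 1 SE each way; coloured points passed the threshold in at least 1 line. *ECH1* and *ACSL1* lie to the upper right, while *DBI* and *ALDH3A2* lie high on the y axis, at 0.83 and 1.17, with values of -0.21 and -0.29 on the x axis.

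Whether a response differed between the lines was tested directly, as the log2 fold change in LNCaP minus that in 22Rv1. *DBI* and *ALDH3A2* passed, 2 of 28 members, beside 0.734% of all genes. The difference was -1.04 for *DBI* (SE 0.19, adjusted p = 0.00177) and -1.46 for *ALDH3A2* (SE 0.27, adjusted p = 0.00210). Both kept their call in 22 of 23 alternatives and lost it with limma-trend on the deposited log2 CPM (adjusted p = 0.0666 and 0.0690).

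The difference for *ECH1* was -0.61 (SE 0.19) and did not pass (adjusted p = 0.142), so a larger rise in 22Rv1 than in LNCaP was not established. Of the 26 members that did not pass, 13 had 95% intervals within 2-fold, and the other 13 could not be bounded at that size. *ABCD3* gave 0.95 (SE 0.34, adjusted p = 0.246) and *CPT1A* -1.09 (SE 0.60, adjusted p = 0.489). *ACSL1*, called in LNCaP alone, gave 0.27 (SE 0.57, adjusted p = 0.904), so no difference between the lines was shown for it.

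*DBI* and *ALDH3A2* are shown with the 100 bases before an annotated start, because their responses differed between the lines. The sequences are from RefSeq on GRCh38.p14, both plus strand, at chr2:119366877-119366976 for *DBI* and chr17:19648036-19648135 for *ALDH3A2*. Capitals mark a match to CCAAT on either strand. RefSeq lists 4 starts for *DBI* and 2 for *ALDH3A2*, and 3′ tags do not show which of them was used.
*DBI*: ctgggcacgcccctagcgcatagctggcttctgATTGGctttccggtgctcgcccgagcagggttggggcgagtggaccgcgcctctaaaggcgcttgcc
*ALDH3A2*: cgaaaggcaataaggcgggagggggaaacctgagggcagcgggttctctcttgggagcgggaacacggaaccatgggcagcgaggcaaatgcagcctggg
The *DBI* window holds 1 CCAAT match, read on the other strand as ATTGG, and the *ALDH3A2* window none, where 18.06% of 34943 promoter windows of 100 bases hold it. Neither holds GGGCGG on either strand, which 31.24% of the windows hold. The 100 bases before the other *ALDH3A2* start, not printed here, hold CCAAT, and GGGCGG on both strands. The matches therefore depend on the start chosen, and no contrast between the 2 genes is drawn from them. The windows are 67% and 63% G and C.

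Of the 35 members, 29 had promoters in the RefSeq table. In the 250 bases before the start, on both strands, none of these 29 genes held TCAAGGTCA, the element of estrogen-related receptors, or DR1, the element of PPARs written as AGGTCA repeated after 1 base. Among all 34943 promoters, 0.3205% and 0.01717% held these elements. The shared core AGGTCA, which is part of both, was found in none of the 29 and in 12.09% of all promoters. A missing match says only that these letters are not in the window.

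Averaged over LNCaP and 22Rv1 with equal weight, 4 of 28 members rose and none fell, beside 6.01% of all genes. This mean uses the same libraries as the comparisons within each line and is no independent evidence. *ECH1* rose by 0.75 (SE 0.09, 1.68-fold, adjusted p = 6.73e-07) and kept its call in all 23 alternatives. *ETFA* rose by 0.50 (SE 0.14, 1.42-fold, adjusted p = 0.0185), with its own values of 0.44 in LNCaP and 0.57 in 22Rv1.

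In LNCaP, *ETFA* was at 173, 147 and 112 CPM with DMSO and at 191, 176 and 203 CPM with SEL120-34A, without overlap. Its mean response lost the call without LNCaP DMSO replicate 3 (adjusted p = 0.0928) and without 22Rv1 SEL120-34A replicate 2 (adjusted p = 0.132), the library at 253 CPM. The call was also lost with library totals (adjusted p = 0.0730), no filter (0.0851) and limma-trend (0.127). *DBI* (0.31, SE 0.09, adjusted p = 0.0405) and *ALDH3A2* (0.44, SE 0.14, adjusted p = 0.0452) also passed on average, although their values in the 2 lines had opposite signs.

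These last calls were weak. *DBI* lost its mean call in 10 of 12 leave-one-out fits (adjusted p from 0.0513 to 0.170), keeping it only without LNCaP DMSO replicate 1 or 22Rv1 SEL120-34A replicate 3. *ALDH3A2* lost its mean call in 9 of 12 (adjusted p from 0.0598 to 0.289), keeping it only without replicate 1 of either LNCaP arm or 22Rv1 SEL120-34A replicate 3. *SCP2* stood just outside the threshold (0.42, SE 0.14, adjusted p = 0.0722).

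More members differed between the lines than between treated and control cells of either line. The same held over all genes, with 49% called between the lines against 2.77% for the response in LNCaP and 5.7% in 22Rv1. In DMSO, 16 of 28 members (57.1%) differed between LNCaP and 22Rv1, 12 higher and 4 lower in LNCaP, beside 49% of all genes in this comparison. *ACSL1* was 145 ± 46.2 CPM in LNCaP and 11.8 ± 2.75 CPM in 22Rv1 (n = 3 each), with no overlap (log2 difference 3.60, SE 0.30, 12.1-fold, adjusted p = 2.09e-13). *DBI* was 857 ± 43.4 against 302 ± 15.7 CPM, also without overlap (1.51, SE 0.13, adjusted p = 8.83e-13).

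*ECI2* was at 117, 105 and 108 CPM in DMSO-treated LNCaP and at 19.6, 13.1 and 22.7 CPM in 22Rv1 (log2 difference 2.52, SE 0.26, adjusted p = 7.30e-11). *DECR1*, the mitochondrial dienoyl-CoA reductase for unsaturated chains, went the other way, at 29.6, 20.9 and 25.2 CPM in LNCaP against 108, 82.4 and 97.8 CPM in 22Rv1 (-1.88, SE 0.25, adjusted p = 3.31e-08). So the auxiliary enzymes for unsaturated chains did not shift together: *ECH1* was higher in LNCaP (0.88, SE 0.13), and *ECI1* gave -0.07 (SE 0.16).

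*CPT1A* was at 40.9, 52.4 and 35.0 CPM in LNCaP and at 13.7, 20.6 and 10.7 CPM in 22Rv1 (1.50, SE 0.33, adjusted p = 2.32e-04). *CROT* was at 39.4, 36.7 and 19.6 CPM against 5.89, 9.36 and 5.96 CPM, on 3 to 5 counts per 22Rv1 library (2.13, SE 0.45, adjusted p = 1.22e-04). *ABCD3* was at 129.6, 134 and 115 CPM against 66.7, 46.8 and 53.7 CPM (1.17, SE 0.20, adjusted p = 7.12e-06). For these 3 genes no 22Rv1 library reached the lowest LNCaP library.

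*ETFDH* was at 21.1, 15.7 and 25.2 CPM in LNCaP and at 3.93, 7.49 and 13.1 CPM in 22Rv1 (1.24, SE 0.44, adjusted p = 0.0182). Its call was lost in 4 of 15 alternatives: library totals (adjusted p = 0.0542), DESeq2 (0.0671), limma-trend (0.0716) and a threshold of 0.01. *ETFB* (0.81, SE 0.18), *PECR* (1.05, SE 0.33), *SCP2* (0.53, SE 0.19) and *ECHS1* (0.44, SE 0.13) were also higher in LNCaP. *DECR2*, the peroxisomal dienoyl-CoA reductase (-1.11, SE 0.24), *ALDH3A2* (-0.92, SE 0.17) and *ACADVL* (-0.53, SE 0.17) were lower. *SCP2*, *ECHS1*, *PECR* and *ACADVL* each lost the call when certain single libraries were left out: *SCP2* without LNCaP DMSO replicate 1 (adjusted p = 0.0838) or 3 (0.0589), or 22Rv1 DMSO replicate 1 (0.0599) or 3 (0.0542), *ECHS1* without LNCaP DMSO replicate 1 (0.0504) or 22Rv1 DMSO replicate 2 (0.0635), *PECR* without LNCaP DMSO replicate 1 (0.0784), and *ACADVL* without LNCaP DMSO replicate 3 (0.0895). *SCP2* lost its call in 10 of 23 alternatives, among them thinned counts (adjusted p = 0.323), library totals (0.175) and DESeq2 (0.0738). *ACADVL* also lost it with thinned counts (0.0593) and *ECHS1* with library totals (0.125).

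**Figure D3:**
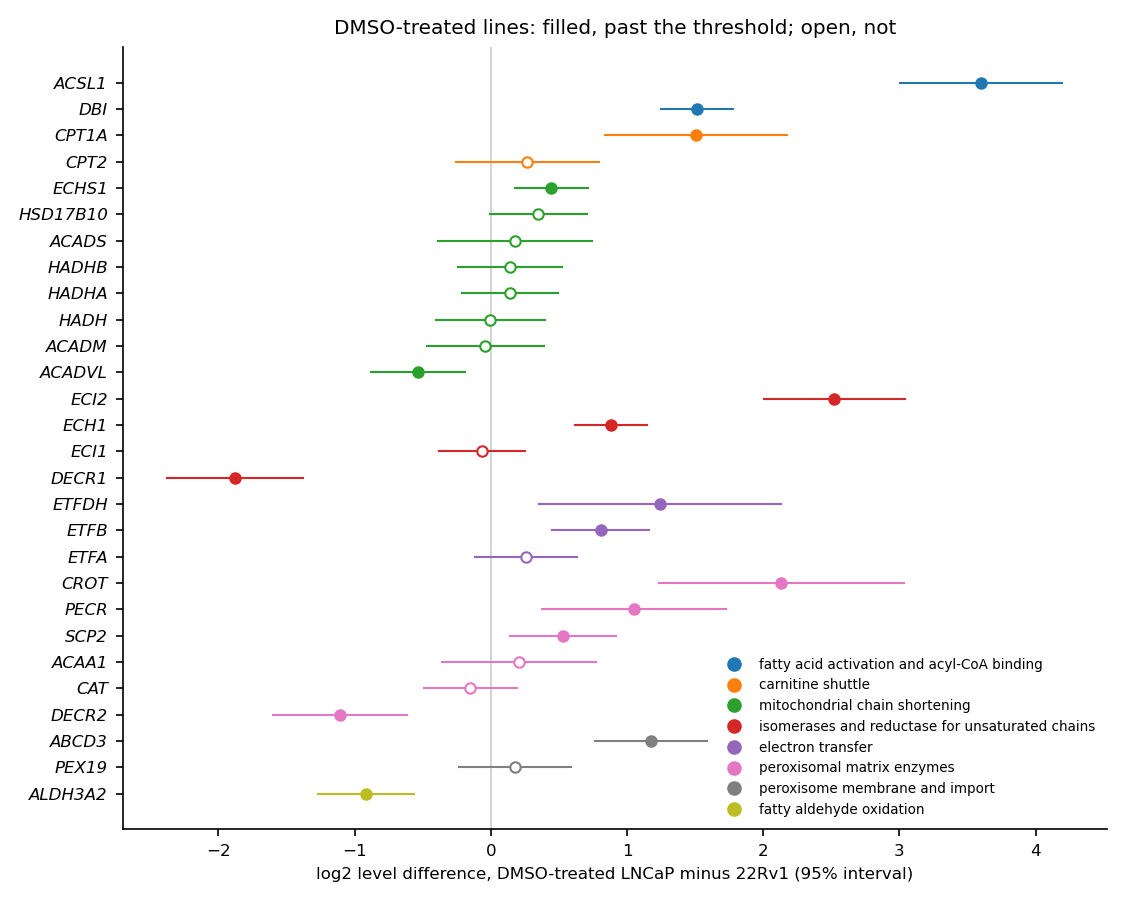
Log2 difference in level between DMSO-treated LNCaP and DMSO-treated 22Rv1 (x axis) for the 28 tested members (y axis), coloured by role, with 95% intervals; filled points passed the threshold and positive values are higher in LNCaP. *ACSL1*, at 3.60, and *DECR1*, at -1.88, mark the ends, and the 8 enzymes of mitochondrial chain shortening lie between -0.53 (*ACADVL*) and 0.44 (*ECHS1*).

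The 12 members that did not differ past the threshold all had 95% intervals within 2-fold, so for them a larger difference lay outside the interval. They included 6 of the 8 tested enzymes of mitochondrial chain shortening (*ACADM*, *ACADS*, *HADH*, *HADHA*, *HADHB* and *HSD17B10*), with differences from -0.04 to 0.35. The others were *CPT2*, *ECI1*, *ETFA*, *ACAA1*, *CAT* and *PEX19*, from -0.15 to 0.27. In *ALDH3A2* the line with the higher control level was the one in which it rose, and in *DBI* it was the line with the lower one: treated 22Rv1 held 535 ± 108 CPM of *DBI*, still below the 726 ± 37.8 CPM of treated LNCaP.

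PC3 had 1 library per arm, so its ratios have no replicate check and no p-value is given. Of the 26 members with at least 10 counts in both PC3 libraries, none changed 2-fold, beside 2.93% of 7089 genes. The count requirement removes members with few counts in either library, so this holds only for the 26. Among those removed, *ETFDH* (20 counts with DMSO and 3 with SEL120-34A), *SLC25A20* (20 and 6) and *CROT* (13 and 3) were over 2-fold lower in CPM. *PEX14* (5 and 8 counts) and *AMACR* (1 and 2) were over 2-fold higher. No counting interval was taken for these removed members. *ECH1* was at 136 CPM with DMSO and 203 CPM with SEL120-34A, on 125 and 116 counts (log2 ratio 0.58, 95% counting interval 0.20 to 0.96). *DBI* stood at 621 and 599.7 CPM (-0.05, interval -0.25 to 0.15) and *ALDH3A2* at 62.1 and 64.9 CPM (0.06, interval -0.57 to 0.69).

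Besides *ECH1*, the interval left 0 for 4 of the 26 members with enough counts in PC3. How many of all genes did so was not counted, so this number is not read as a trait of the members. *ECI2* was higher after SEL120-34A (94.7 and 161 CPM, log2 ratio 0.77), whereas *ACADVL* (-0.57), *HADHB* (-0.61) and *CAT* (-0.65) were lower. The median log2 ratio was -0.04 for the members and 0.05 for all genes. The intervals are exact and cover counting error only, not the spread between cultures.

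**Figure D4:**
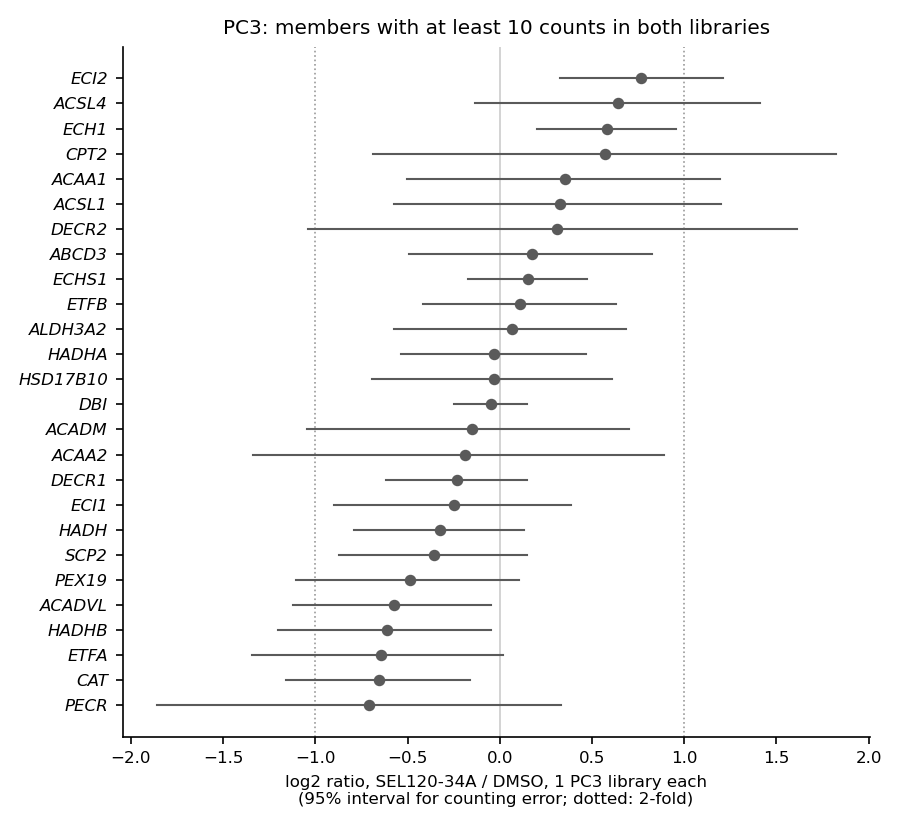
Log2 ratio of SEL120-34A to DMSO in the 2 PC3 libraries (x axis) for the 26 members with at least 10 counts in both (y axis), with exact 95% intervals for counting error; dotted lines mark 2-fold either way. All ratios lie between the dotted lines, and 5 intervals do not cross 0, those of *ECI2*, *ECH1*, *ACADVL*, *HADHB* and *CAT*. The same count was not made over all genes.

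The 7 members that were not tested had few counts in LNCaP and 22Rv1. *MLYCD*, which removes the CPT1 inhibitor malonyl-CoA, had 0 to 1 counts per library, and 0 in both PC3 libraries. *ACSL4*, an acyl-CoA synthetase that prefers arachidonic acid, had 0 to 3 counts in the 12 libraries but 31 and 30 in PC3 (33.8 and 52.6 CPM). *AMACR* had 0 to 7 counts, *ACOX3*, a peroxisomal acyl-CoA oxidase, 0 to 4, and *PEX14*, a docking protein of peroxisomal import, 0 to 7. *SLC25A20*, the carnitine carrier, had 2 to 17 and *ACAA2*, a mitochondrial thiolase, 1 to 12. The low-count filter removed these members from the reported fit, so no change was tested for them there. The values do not show that the genes are silent. Some tested members share bases with another expressed gene, and how tags were assigned by strand is not given in the sources used here. These are *HADHA* with *HADHB*, *DECR1* with *NBN*, *CPT2* with *CZIB*, *ETFDH* with *PPID* and *C4orf46*, and *ACADVL* with *DLG4* on opposite strands, and *DECR2* with *NME4*, *ACADM* with *RABGGTB* and *PECR* with *MREG* on the same strand, so their values are less certain. These partners had 20 to 837 counts over the 14 libraries. Partners of other tested members had under 10 counts. The genes that overlap *ECH1* and *ALDH3A2* had 0 counts in all libraries, and none overlaps *DBI*.

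A list of 85 other genes of fatty acid uptake, mitochondrial and peroxisomal oxidation, peroxins and their regulators was set beside the members, with 42 tested. In LNCaP none of the 42 passed edgeR's test, beside 2.77% of all genes. An unadjusted p under 0.05 was found for 12 of the 42 and for 956 of all 7086 genes. In 22Rv1, 1 rose and 2 fell, 7.14% of the 42 and near the 5.7% of all genes. *PDK4*, a mitochondrial kinase that inactivates pyruvate dehydrogenase, had 2, 3 and 2 counts in the DMSO libraries and 22, 18 and 8 in the SEL120-34A libraries of 22Rv1 (log2 fold change 3.70, SE 0.55, adjusted p = 1.30e-05). In LNCaP its log2 fold change had the other sign, -2.38, and did not pass. Its response in LNCaP minus that in 22Rv1 was -6.08, which did not pass either.

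The 2 that fell in 22Rv1 were *HSD17B4*, the multifunctional enzyme of peroxisomal oxidation, and *ACSL3*, an acyl-CoA synthetase of the endoplasmic reticulum and lipid droplets. *HSD17B4* was at 102, 89.8 and 100.2 CPM with DMSO and 41.3, 42.9 and 62.8 CPM with SEL120-34A (-0.96, SE 0.24, adjusted p = 0.0113). It was no longer called without 22Rv1 SEL120-34A replicate 1 (adjusted p = 0.110) or 2 (0.0751). *ACSL3* was at 116, 109 and 95.4 CPM against 68.9, 51.5 and 57.0 CPM (-0.80, SE 0.22, adjusted p = 0.0246), and was no longer called without 22Rv1 DMSO replicate 1 (0.0594) or SEL120-34A replicate 1 (0.0507), 2 (0.129) or 3 (0.0939). Its call was also lost with counts thinned to the smallest total (adjusted p = 0.0730).

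Averaged over both lines, the log2 fold change of *ACSL3* was -0.65 (SE 0.15, adjusted p = 0.00347), a fall that passed in all 23 alternatives. *PHYH*, which starts the breakdown of the branched phytanic acid, rose by 0.60 (SE 0.18, adjusted p = 0.0293), a call lost in 11 of 23 alternatives. Among these were thinned counts (adjusted p = 0.267), no filter (0.179), library totals (0.0897), limma-trend (0.0895) and DESeq2 (0.0572). It was also lost in 5 of 12 leave-one-out fits (adjusted p from 0.0520 to 0.152): those that left out DMSO replicate 2 or 3 or SEL120-34A replicate 2 of LNCaP, or replicate 3 of either 22Rv1 arm. The response of *HSD17B4* differed between the lines by 1.16 (SE 0.30, adjusted p = 0.0499), a call lost in 15 of 23 alternatives, 8 of them leave-one-out fits. In DMSO, 26 of the 42 (61.9%) differed between LNCaP and 22Rv1, beside 49% of all genes, with 17 higher and 9 lower in LNCaP.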

How the data were processed

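RNA was isolated with a Blirt EXTRACTME kit and libraries were prepared by BRB-seq (Alithea), which barcodes samples before pooling and reads transcript 3′ ends. The authors used STARsolo with GRCh38.p13 and GENCODE to align and count the reads, per the labels. Whether unique molecular identifiers were collapsed is not given in the sources used here. The deposited counts are raw whole numbers per gene. The deposited log2 CPM values cover 9638 genes and matched a recalculation from the counts with a prior count of 2 to within 4.97e-14. They served only the limma-trend alternative.

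Groups and replicate numbers came from the labels. The 35 members, their roles and the 85 other pathway genes were chosen with earlier results of these data known. Counts were analysed with edgeR 4.0.16 (R 4.3.3): genes were filtered with filterByExpr, libraries scaled by TMM, and 1 quasi-likelihood model with a mean for each of 4 groups was fitted to 12 LNCaP and 22Rv1 libraries (8 residual degrees of freedom, common biological coefficient of variation 11.1%). Contrasts gave the response in each line, their mean and difference, and the difference between DMSO-treated lines. Benjamini-Hochberg adjusted p was taken over all 7086 genes at 0.05, two-sided. The labels do not say that replicates came from separate cultures, so p-values measure the spread between these samples, which may be technical. PC3 was described by the log2 ratio of CPM for genes with at least 10 counts in both libraries, with exact 95% counting intervals and no test. Tags without collapsed identifiers need not be independent molecules.

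All 35 members were to be named, with values in every library for those called in a response and for the 8 largest called differences between lines. Alternatives were DESeq2 1.42.0 (size factors and Wald test), limma-trend 3.58.1, library totals, other filters, thinned counts, removal of mitochondrial genes, PC3 added, a replicate block, single-line fits, a threshold of 0.01 and leaving out each library. The tests were checked on simulated counts. Gene positions are from GENCODE on GRCh38. The CCAAT and GGGCGG motifs were chosen after values were seen.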

Additional observations from a re-analysis of the deposited data

Results flagged for a closer look

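The responses of *DBI* and *ALDH3A2* to SEL120-34A differed between LNCaP and 22Rv1 by the test of the difference itself. For *DBI* the log2 fold change in LNCaP minus that in 22Rv1 was -1.04, from -0.21 and 0.83, with treated libraries below the controls in LNCaP and above them in 22Rv1. For *ALDH3A2* the difference was -1.46, from -0.29 and 1.17, with overlapping groups in LNCaP and separate ones in 22Rv1. In PC3, with 1 library per arm, the log2 ratios were -0.05 for *DBI* and 0.06 for *ALDH3A2*.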

How the results depend on the processing

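In 22Rv1 the number of members called was 3 to 4 over 24 alternatives. In LNCaP it fell from 2 to 1 with DESeq2's Wald test, with PC3 added, with at least 10 counts in every library, with library totals in place of TMM and with no filter, and to 0 with limma-trend and at a threshold of 0.01. It was 0 to 2 when single libraries were left out, and without LNCaP SEL120-34A replicate 3 the 1 call was *HADH*, lower. For the mean response the count of 4 became 2 with PC3 added or thinned counts and 1 with library totals, no filter, limma-trend or a threshold of 0.01, and it was 1 to 4 when single libraries were left out. For the difference between responses the count of 2 became 0 with limma-trend and stayed at 2 without any single library. Between the DMSO-treated lines 16 members became 8 of 18 tested with at least 10 counts in every library and 10 of 24 tested with thinned counts, settings that test fewer members, and 12 to 16 without single libraries. In PC3 the count past 2-fold went from 0 to 5 when 3 counts over both libraries were enough. With thinned counts, *ACADVL* (adjusted p = 0.0593) and *SCP2* (0.323) were still tested between lines and lost the call. The cause of these changes was not tested.

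With the replicate number as a replicate block, 2 members were called in LNCaP, 3 in 22Rv1, 5 on average (the added one was *SCP2*), 2 for the difference and 16 between lines. Same-numbered DMSO and SEL120-34A libraries did not deviate together (correlations -0.05 to 0.12), so the numbers were not taken as pairs. Of 3838 alternative values of single genes, 3636 kept their side of the threshold, 197 lost the call and 5 gained one. In 158 a value that was not called changed sign, and no called value did. Over all genes the number called ranged from 41 to 275 in LNCaP, 158 to 479 in 22Rv1, 206 to 526 on average, 5 to 77 for the difference and 1503 to 4361 between lines, where the reported fits gave 196, 404, 426, 52 and 3473. Scaling by library totals moved the median of all genes by -0.08 in LNCaP, -0.14 in 22Rv1, -0.12 on average and -0.21 between lines, and the median of the members was then -0.01, 0.01, -0.01 and 0.05. Depth limited the members with few counts, and 7 of 35 could not be tested.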
